A study of Mus musculus with 10 samples.

Results

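The mitochondrial solute carrier family (Slc25, with the uncoupling proteins Ucp1, Ucp2 and Ucp3) was compared between livers of CCl4-injured mice with and without metformin. A gene belonged to the family if a non-control array probe carried an accession of a RefSeq gene whose symbol begins with Slc25a, or of Ucp1, Ucp2 or Ucp3. This gave 50 genes and 62 probes out of 21613 named genes and 55681 probes, and 43 of the 50 were bright enough to be tested. Members were taken by name with no cut on a measured value, although the family was picked for study with earlier results of these data known.

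Liver RNA came from 10 male TG221 mice, which overexpress miR-221 from a transgene on a B6D2F2 background, 1 Agilent array per mouse. Starting at 4 to 6 weeks of age every mouse received the hepatotoxin carbon tetrachloride (CCl4), which scars the liver, at 20% (v/v) in olive oil by gavage, 3 times a week for 14 weeks. Metformin, a biguanide given against type 2 diabetes, was added in 6 mice at 300 mg/kg daily by mouth once CCl4 had been given for 3 weeks; the other 4 mice had CCl4 alone. Livers were collected at 24 weeks, both groups carried the transgene and had CCl4, and the labels name both liver and hepatocellular carcinoma without saying whether a piece was tumour. The promoter that drives the transgene is not given in the sources used here. Since each group lay on a slide of its own with its own scan time, slide and metformin cannot be told apart; the labels say that mice were assigned to arms at random.

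Slc25 proteins sit in the inner mitochondrial membrane, with a few in the outer membrane or in peroxisomes, and most move small molecules, such as ADP against ATP, citrate against malate, or acylcarnitine. They are made in the cytosol and inserted by the TIM22 translocase with the help of small TIM chaperones. In hepatocytes they link the mitochondrial steps of fatty acid oxidation, the urea cycle, gluconeogenesis and heme synthesis to the steps in the cytosol. Metformin is known for its action on mitochondria, above all on respiratory complex I.

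All signals below are log2 intensities minus the 75th percentile of the same array, and a change is the mean of 6 metformin mice minus that of 4 CCl4 mice on that scale. A gene was called when its adjusted p in limma (Benjamini-Hochberg over 22184 features) was below 0.05. Of the 43 carriers tested, 11 were called higher and 13 lower with metformin and 19 were not called. That is 25.6% higher and 30.2% lower, against a background of 28.0% and 17.4% of all features, or 55.8% called against 45.4%. Of the 13, Slc25a18 and Slc25a35 were bright enough only in CCl4 mice and so entered the test through the group where they were high; without them 11 of 41 were higher and 11 lower, a count made after seeing the data. The groups did not overlap for 17 carriers (39.5%, against 33.7% of all features). The median change of the tested carriers was -0.12 and that of all features 0.10. Carriers thus moved in both directions. With the mean of a gene's probes in place of the brightest, 9 were called higher and 13 lower. Without CCl4 mouse 2 the number called lower was 8, and scaling to spike-in transcripts, which lowers every change by the same amount and puts the median of all features at -0.45, gave 2 higher and 26 lower (4.17% and 43.7% of all features), so 8.70% of all calls were then higher in place of 61.7%. The mean log2 spike-in signal was 12.02 to 12.34 on metformin arrays and 11.42 to 12.06 on CCl4 arrays. Each group had its own slide, so slide and metformin cannot be told apart in this difference. Calls were also read in 21 alternative fits, among them normexp (another background correction), slide row as a covariate, slide row 1 alone (2 metformin and 4 CCl4 mice), the mouse number as a replicate block, and each mouse left out. Slide row 2 held metformin mice only, so both slide row fits take the change from the same 2 metformin and 4 CCl4 mice.

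**Figure D1:**
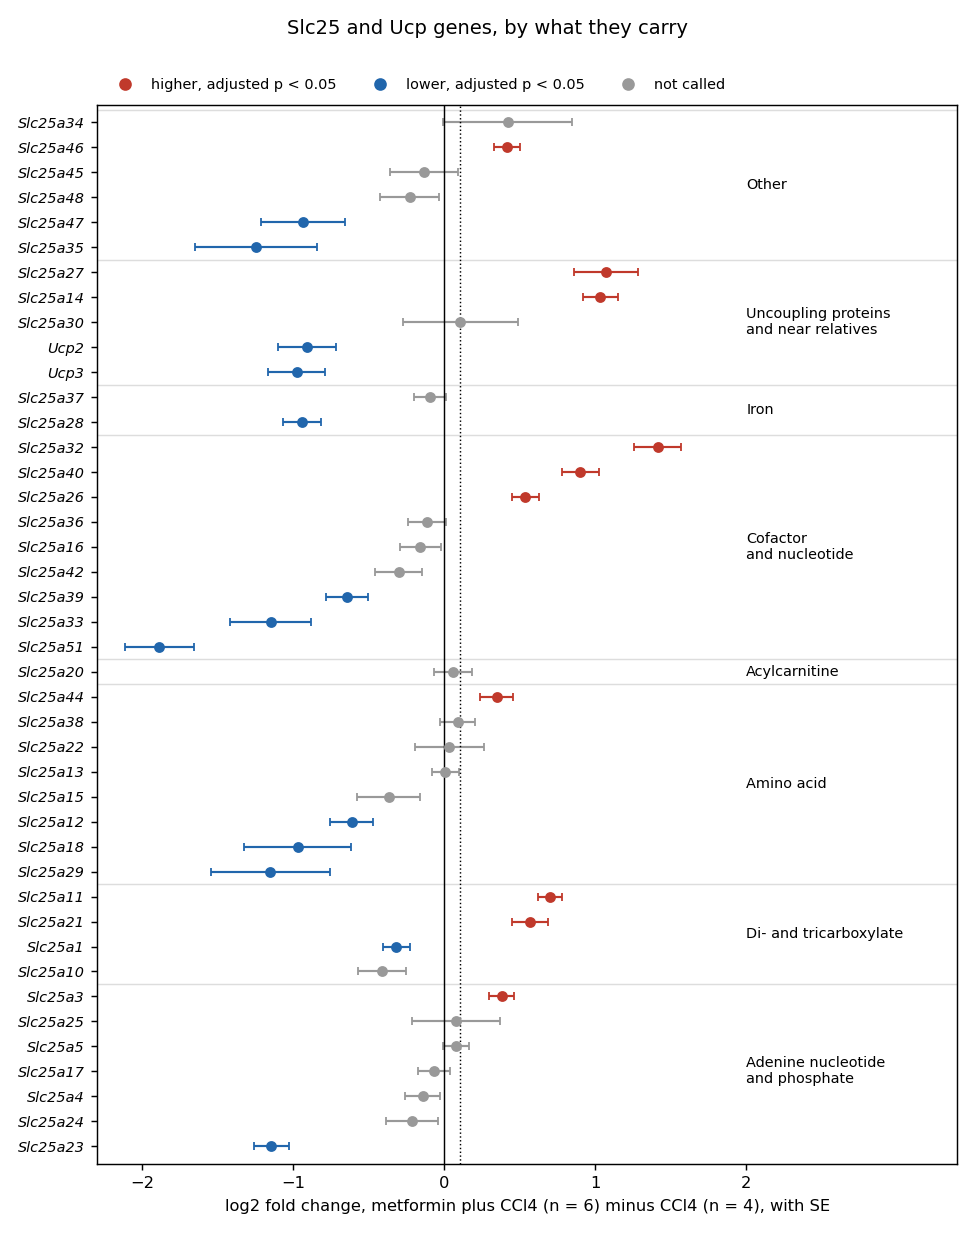
Log2 fold change with its SE for 42 of the 43 tested carriers, grouped by cargo; the solid line is no change and the dotted line the median of all features, 0.10. The cofactor group spans the range from Slc25a51 at -1.89 to Slc25a32 at 1.41, while among adenine nucleotide and phosphate carriers Slc25a23 and Slc25a3 alone were called. The brighter probe of a gene is shown, and the second probes of Slc25a51 and Slc25a32 were at -0.75 and -1.09.

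The promoter sequences of 6 carriers are shown because these genes are described below as falling or rising, among them the neighbours Ucp3 and Ucp2. Each is the 250 bases before the RefSeq start, GRCm38.p6, 5′ to 3′ on the gene's strand, with capitals marking a CCAAT box (CCAAT or ATTGG) or an E-box (CACGTG).
Slc25a28, chr19:43674882-43675131, minus strand: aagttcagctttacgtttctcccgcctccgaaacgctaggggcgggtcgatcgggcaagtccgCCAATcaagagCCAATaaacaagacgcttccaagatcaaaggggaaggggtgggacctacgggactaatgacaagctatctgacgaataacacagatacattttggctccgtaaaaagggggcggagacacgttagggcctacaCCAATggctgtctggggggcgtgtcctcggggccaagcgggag
Slc25a33, chr4:149774268-149774517, minus strand: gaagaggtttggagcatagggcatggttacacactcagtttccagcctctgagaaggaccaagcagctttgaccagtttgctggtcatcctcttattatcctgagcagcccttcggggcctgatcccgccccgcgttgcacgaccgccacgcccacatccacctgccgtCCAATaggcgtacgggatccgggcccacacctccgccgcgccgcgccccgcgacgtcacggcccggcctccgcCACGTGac
Ucp3, chr7:100472741-100472990, plus strand: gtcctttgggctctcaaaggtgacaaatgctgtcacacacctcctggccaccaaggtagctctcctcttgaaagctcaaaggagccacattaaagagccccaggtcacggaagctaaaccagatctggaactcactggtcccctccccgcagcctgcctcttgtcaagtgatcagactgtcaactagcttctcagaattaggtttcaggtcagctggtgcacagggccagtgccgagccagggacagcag
Ucp2, chr7:100493108-100493357, plus strand: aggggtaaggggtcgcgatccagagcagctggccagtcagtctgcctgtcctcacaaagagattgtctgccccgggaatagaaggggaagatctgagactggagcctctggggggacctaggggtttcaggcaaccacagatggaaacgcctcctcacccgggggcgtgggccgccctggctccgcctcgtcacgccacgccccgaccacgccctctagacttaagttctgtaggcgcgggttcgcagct
Slc25a11, chr11:70647040-70647289, minus strand: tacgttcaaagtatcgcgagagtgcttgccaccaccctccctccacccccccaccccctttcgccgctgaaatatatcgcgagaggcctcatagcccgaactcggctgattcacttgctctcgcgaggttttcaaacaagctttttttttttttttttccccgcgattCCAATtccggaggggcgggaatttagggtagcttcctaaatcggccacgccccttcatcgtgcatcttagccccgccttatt
Slc25a40, chr5:8422588-8422837, plus strand: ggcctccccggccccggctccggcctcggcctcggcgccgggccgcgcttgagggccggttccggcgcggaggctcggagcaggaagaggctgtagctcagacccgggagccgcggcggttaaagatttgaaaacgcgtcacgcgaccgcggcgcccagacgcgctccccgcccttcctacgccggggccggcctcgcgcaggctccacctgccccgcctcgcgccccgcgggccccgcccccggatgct
The Slc25a28 promoter holds 3 CCAAT boxes, and the Slc25a33 promoter holds 1 CCAAT box and, near the start site, 1 E-box. In Ucp2, Ucp3 and Slc25a40 none of the motifs searched was present in this window. Over 39 carriers (49 promoters), 42.9% of promoters held a CCAAT box on either strand against 33.9% of all 32851 mouse promoters of this length. Carriers on 1 chromosome were left out of the carrier shares, while the set of all promoters was not cut in this way. An E-box was in 16.3% of carrier promoters against 6.02%, an ETS site bound by GABP (CCGGAAG or CTTCCGG) in 12.2% against 6.91%, and an ERR half-site (AAGGTCA or TGACCTT) in 2.04% against 4.08%. The palindromic NRF1 site was in 0 of the 49 and in 0.782% of all. Carrier promoters were also richer in G and C, with a median of 57.6% against 52.4%, and these shares carry no test. Windows of 1 gene can overlap, so promoters are not separate units, and the same E-box of Slc25a14 was counted in 2 windows. The E-box carriers were Slc25a1, Slc25a13, Slc25a14, Slc25a15, Slc25a31, Slc25a33 and Slc25a36, of which 1 was called higher and 2 lower.

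Among carriers of adenine nucleotides and phosphate, 7 of 9 were tested, 1 rose and 1 fell. Slc25a23, a calcium-regulated exchanger of ATP-Mg for phosphate, was at 1.79, 1.83, 1.47 and 1.97 in CCl4 mice 1 to 4 and at 0.43 to 0.86, median 0.61, in the metformin mice. No metformin mouse reached the lowest CCl4 mouse. It fell by 1.15 ± 0.12 SE on the log2 scale, 2.21-fold (adjusted p = 7.32e-05, n = 6 and 4), and was called in all 21 alternative fits. Slc25a25, another ATP-Mg/phosphate exchanger, was at 6.27, 6.41, 5.83 and 7.0 in CCl4 mice and at 5.67 to 7.22, median 6.50, with metformin. Its groups overlapped over most of their range and its change of 0.079 ± 0.29 SE was not called (adjusted p = 0.845). Slc25a24, the third exchanger of this kind, was at -0.21 ± 0.17 SE and was not called.

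Slc25a3 carries the phosphate that ATP synthase needs, and also copper. Its CCl4 values were 5.50, 5.32, 5.28 and 5.30 against 5.64 to 5.85, median 5.74, with metformin, so the groups were apart by a small step. The change was 0.38 ± 0.081 SE (adjusted p = 0.00355), 0.62 by its second probe, and -0.18 after scaling to spike-ins. The call was also lost with slide row 1 alone and with the replicate block (adjusted p = 0.0732 and 0.0686). The adenine nucleotide translocases, which exchange ADP for ATP, were not called. Slc25a5, the form of dividing and many other cells, was at 5.25, 5.26, 5.30 and 5.04 in CCl4 mice and at 5.17 to 5.40, median 5.27, with metformin, a change of 0.077 ± 0.085 SE (adjusted p = 0.489); its dimmer second probe, well above background on 4 of 6 metformin arrays, was at -0.56 and not called. Slc25a4, the heart and muscle form, was at -0.14 ± 0.12 SE (adjusted p = 0.341), and the skeletal muscle markers Ckm, Acta1, Myh4 and Mb were well above background on 0 arrays. Slc25a31, the germ cell form, was below background on every array, and the peroxisomal carrier Slc25a17 was at -0.068 ± 0.11 SE and not called.

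The 4 carriers of di- and tricarboxylates split. Slc25a11, which exchanges 2-oxoglutarate for malate in the malate-aspartate shuttle, was at 4.81, 4.68, 4.65 and 4.78 in CCl4 mice and 5.34 to 5.54, median 5.40, with metformin. Every metformin mouse was above every CCl4 mouse, and mice differed little within a group. It rose by 0.70 ± 0.08 SE (1.62-fold, adjusted p = 1.20e-04) and was called in 20 of 21 alternative fits, the exception being spike-in scaling at 0.14. Slc25a21, a carrier of 2-oxoadipate and related acids, also rose, by 0.57 ± 0.12 SE (adjusted p = 0.00315). Its change was 0.013 after spike-in scaling and 0.42 with slide row 1 alone (adjusted p = 0.960 and 0.0704).

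Slc25a1 exports the citrate from which cytosolic acetyl-CoA for fatty acid synthesis is made. It was at 4.84, 5.01, 4.65 and 4.97 in CCl4 mice and at 4.45 to 4.63, median 4.56, with metformin, without overlap but with only a small step between CCl4 mouse 3 and the highest metformin mouse. It fell by 0.32 ± 0.091 SE on the log2 scale (adjusted p = 0.0165), a call lost without CCl4 mouse 2, with the replicate block and in both slide row fits (highest adjusted p = 0.127). Acly, which cleaves the exported citrate in the cytosol, was lower by the same test at -0.56 (adjusted p = 0.0178). Slc25a10, which exchanges malate or succinate for phosphate, was at 2.17, 2.24, 1.86 and 1.88 in CCl4 mice and 1.23 to 2.03, median 1.61, with metformin, overlapping because metformin mouse 3 lay above CCl4 mice 3 and 4. Its change of -0.41 ± 0.16 SE missed the threshold (adjusted p = 0.0551) and passed it in 5 of 21 alternative fits, among them without metformin mouse 3 (adjusted p = 0.0203).

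Of 9 amino acid carriers 8 were tested, 1 of which was called higher and 3 lower, Slc25a18 among them. Of the aspartate-glutamate carriers of the malate-aspartate shuttle, Slc25a12 (aralar) fell by 0.61 ± 0.14 SE on the log2 scale (adjusted p = 0.00534), whereas Slc25a13 (citrin), the main form of the liver, was at 5.57, 5.49, 5.41 and 5.37 in CCl4 mice and 5.27 to 5.55, median 5.53, with metformin, a change of 0.0073 ± 0.088 SE (adjusted p = 0.953). The Slc25a12 call was lost in both slide row fits, at -0.40. Slc25a15, the ornithine carrier of the urea cycle, was at 2.65, 1.84, 1.28 and 1.66 in CCl4 mice and 1.44 to 1.60, median 1.45, with metformin. The metformin mice were tightly grouped, CCl4 mice 1, 2 and 4 were above them and CCl4 mouse 3 was below them all. Its change of -0.37 ± 0.21 SE was not called (adjusted p = 0.177), and it depended on single CCl4 mice: it was -0.11 when CCl4 mouse 1 was left out and -0.56 when mouse 3 was (adjusted p = 0.518 and 0.0408). The other ornithine carrier, Slc25a2, was below background on every array.

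Slc25a29, a carrier of basic amino acids, had the largest SD among CCl4 mice of the called carriers (1.08, n = 4), with values of 1.18, 1.07, 0.92 and -1.08, against -0.83 to -0.30, median -0.73, with metformin. CCl4 mice 1 to 3 were above all metformin mice and CCl4 mouse 4 below them all, so the groups overlapped. The change of -1.15 ± 0.39 SE (adjusted p = 0.0343) was called in 10 of 21 alternative fits. Leaving out metformin mouse 2, 3, 4 or 6 ended the call (adjusted p = 0.0597, 0.0547, 0.0593 and 0.0577), as did leaving out CCl4 mouse 1, 2 or 3 (0.103, 0.101 and 0.0932) and the replicate block (0.0719). It also ended with slide row as a covariate (0.160), with slide row 1 alone (0.249) and with no filter on dim probes (0.0581). Slc25a18, a glutamate carrier, was well above background on 3 of 4 CCl4 and 0 of 6 metformin arrays and entered the test through the CCl4 group. Its CCl4 mean was 1.39-fold above a floor set by the dimmest probes above background, which is not a firm minimum. The groups overlapped, with metformin mice up to -4.49 and the lowest CCl4 mouse at -4.68. Since the filter favours a difference, no test is given, and with normexp the change of Slc25a18 was -0.19. Slc25a22, the other glutamate carrier, was at 0.034 ± 0.23 SE, and Slc25a38, the glycine carrier that feeds heme synthesis, at 0.088 ± 0.11 SE, both uncalled. Slc25a44, a branched-chain amino acid carrier, was called higher at 0.35 ± 0.11 SE (0.30 by its second probe), which was at -0.21 after spike-in scaling and held in 12 of 21 alternative fits; the call ended when metformin mouse 5 or 6 (0.0525 and 0.0506 as adjusted p) or CCl4 mouse 3 or 4 (0.0839 and 0.0657) was left out, and also with no filter, the replicate block and both slide row fits (highest 0.265).

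Slc25a20, which brings acylcarnitines into the matrix for beta-oxidation, was at 2.31, 2.30, 2.09 and 2.17 in CCl4 mice and 1.94 to 2.57, median 2.25, with metformin. The CCl4 values lay inside the metformin range, and the change of 0.058 ± 0.13 SE was not called (adjusted p = 0.737). The enzymes on either side of it were both higher on average: Cpt2, which reforms acyl-CoA in the matrix, was called at 0.46 (adjusted p = 0.00432), and Cpt1a, which makes acylcarnitine at the outer membrane, was at 0.38 and missed the threshold (adjusted p = 0.0513). Scaled to spike-ins, Cpt2 and Cpt1a were at -0.096 and -0.18.

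Of the carriers of cofactors and nucleotides all 10 were tested, 4 were called higher and 3 lower. Slc25a51 imports NAD+ into the matrix. Its CCl4 values were 5.12, 5.08, 4.95 and 4.10, against 2.67 to 3.49, median 2.85, with metformin. Even CCl4 mouse 4, the lowest of its group, stayed above every metformin mouse. It fell by 1.89 ± 0.23 SE on the log2 scale, 3.7-fold (adjusted p = 1.51e-04), the largest change of any tested carrier, and was called in all 21 alternative fits (highest adjusted p = 0.0111). Its second probe, to the same RefSeq accession, was at 4.57, 4.05, 3.77 and 3.08 in CCl4 mice and 2.67 to 4.03, median 3.0, with metformin. These overlapped, and the change of -0.75 ± 0.31 SE was not called with probes tested singly (adjusted p = 0.0704).

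Slc25a32, which carries folate and FAD, gave opposite results by probe. The brighter probe, to a predicted transcript, was at 1.64, 1.83, 1.88 and 1.56 in CCl4 mice and 2.72 to 3.52, median 3.13, with metformin and rose by 1.41 ± 0.16 SE (2.66-fold, adjusted p = 1.11e-04). The second, to the curated transcript, was at 2.73, 2.93, 2.79 and 2.23 in CCl4 mice and 1.32 to 2.09, median 1.39, with metformin and fell by 1.09 ± 0.20 SE on the log2 scale (adjusted p = 0.00165 with probes tested singly). In both probes the groups did not overlap, so the carrier has no single direction here, and the mean of its probes was at 0.16 (adjusted p = 0.452). Slc25a26, the importer of S-adenosylmethionine for mitochondrial methylation, was called at 0.54 ± 0.088 SE by the brighter of 2 probes to 1 accession, while the other was at -0.056 and not called. Slc25a26 came to -0.018 after spike-in scaling.

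Slc25a40 and Slc25a39, related carriers of which Slc25a39 imports glutathione, moved apart. Slc25a40 was at -2.02, -1.69, -1.74 and -1.74 in CCl4 mice and -1.13 to -0.54, median -0.92, with metformin and rose by 0.90 ± 0.12 SE (adjusted p = 2.61e-04). Slc25a39 fell by 0.65 ± 0.14 SE on the log2 scale (adjusted p = 0.00370), from 3.88, 3.92, 3.71 and 3.74 in CCl4 mice to 2.79 to 3.49, median 3.17, with metformin. Neither carrier's groups overlapped; Slc25a40 lost its call after spike-in scaling (0.35, adjusted p = 0.220; 0.55 with normexp, called) and Slc25a39 in both slide row fits (-0.37).

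Slc25a33, a pyrimidine nucleotide carrier of mitochondrial DNA and RNA synthesis, was at 4.64, 5.28, 4.88 and 3.71 in CCl4 mice and 3.16 to 3.96, median 3.39, with metformin. CCl4 mouse 4 lay inside the metformin range and the other CCl4 mice above it. It fell by 1.15 ± 0.27 SE on the log2 scale (adjusted p = 0.00591) and by 1.72 by its second probe, and was called in 20 of 21 alternative fits, the exception being slide row 1 alone (adjusted p = 0.0547). The other pyrimidine carrier, Slc25a36, was at -0.12 ± 0.13 SE and not called. Slc25a42, which imports coenzyme A, was at 5.40, 5.80, 6.11 and 5.61 in CCl4 mice and 5.20 to 5.83, median 5.39, with metformin, overlapping widely, with an uncalled change of -0.30 ± 0.16 SE (adjusted p = 0.139); Slc25a16, also linked to coenzyme A, was at -0.16 ± 0.14 SE and not called.

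Of the iron importers of the matrix, mitoferrins 1 and 2, 1 was called. Slc25a28 (mitoferrin 2), the form of most tissues, was at 3.83, 3.89, 3.80 and 3.35 in CCl4 mice and 2.63 to 2.95, median 2.73, with metformin, without overlap. It fell by 0.94 ± 0.13 SE on the log2 scale (1.92-fold, adjusted p = 2.54e-04) in all 21 alternative fits. Slc25a37 (mitoferrin 1), the form of erythroid cells, was at 2.82, 2.87, 3.04 and 3.03 in CCl4 mice and 2.63 to 3.01, median 2.90, with metformin, a change of -0.094 ± 0.11 SE that was not called (adjusted p = 0.503; 0.088 by its second probe). Fech, which puts iron into heme, was at 0.090 and not called. Of the erythroid markers tested (Hbb-b1, Hba-a1, Alas2 and Slc4a1) 3 of 4 fell; their mean signal was 2.72 to 3.25 with metformin and 3.43 to 3.78 without, and their part in the mitoferrin values was not tested.

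Uncoupling proteins let protons or anions leak across the inner membrane, and Ucp2 and Ucp3, direct neighbours on chromosome 7, both fell. Ucp2 was at 0.63, 0.29, 0.35 and 0.20 in CCl4 mice and -1.27 to -0.28, median -0.39, with metformin, the lowest value being that of metformin mouse 6. It fell by 0.91 ± 0.19 SE on the log2 scale (1.88-fold, adjusted p = 0.00329). Ucp3 was at 0.55, 0.03, 0.28 and -0.079 in CCl4 mice and -1.35 to -0.39, median -0.79, with metformin, again lowest in metformin mouse 6. It fell by 0.98 ± 0.19 SE on the log2 scale (1.97-fold, adjusted p = 0.00208), and both genes were called in all 21 alternative fits without overlap between groups. Ucp1, the brown fat form, was below background on every array.

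Ucp2 is also known from macrophages. Of the markers Adgre1, Cd68, Clec4f, Csf1r, Lyz2 and C1qb 3 of 6 fell, with a mean signal of 1.90 to 2.88 with metformin and 2.78 to 3.09 without, while Clec4f, a marker of Kupffer cells, was at -0.29 and not called. In bulk liver, fewer cells of a type and less RNA per cell cannot be told apart, and the part of these cells in the Ucp2 value was not tested. The fat markers Adipoq and Plin1 were below background on every array, and Cidea fell (-1.04). The liver markers Alb, Ttr, Apoa1, Cyp2e1 and Cps1 were high on all arrays, 2 of 5 being called lower (Apoa1 and Cps1) and none higher, with mean signals of 9.03 to 9.23 with metformin and 9.27 to 9.51 without. Markers of stellate cells (4 of 6), endothelium (2 of 5), bile duct (3 of 4) and neutrophils (4 of 5, with Csf3r higher) were lower as well, and those of B and T cells (0 of 2 tested) were not called.

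The brain-type relatives Slc25a27 (UCP4) and Slc25a14 (UCP5) went the other way. Slc25a27 was at -2.58, -2.36, -1.85 and -3.20 in CCl4 mice and -1.57 to -1.25, median -1.44, with metformin. The metformin mice were close together and above all CCl4 mice, which were spread widely. It rose by 1.07 ± 0.21 SE (adjusted p = 0.00236), with 0.58 after normexp, and lost its call after spike-in scaling and with slide row 1 alone (adjusted p = 0.101 and 0.0601). Slc25a14 was at -0.048, 0.12, 0.11 and 0.47 in CCl4 mice and 1.0 to 1.35, median 1.19, with metformin and rose by 1.03 ± 0.11 SE (2.05-fold, adjusted p = 1.03e-04), with spike-in scaling at 0.48 as the only alternative fit of 21 without a call (adjusted p = 0.0642). Slc25a30, the kidney form, was at 0.11 ± 0.38 SE and not called.

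**Figure D2:**
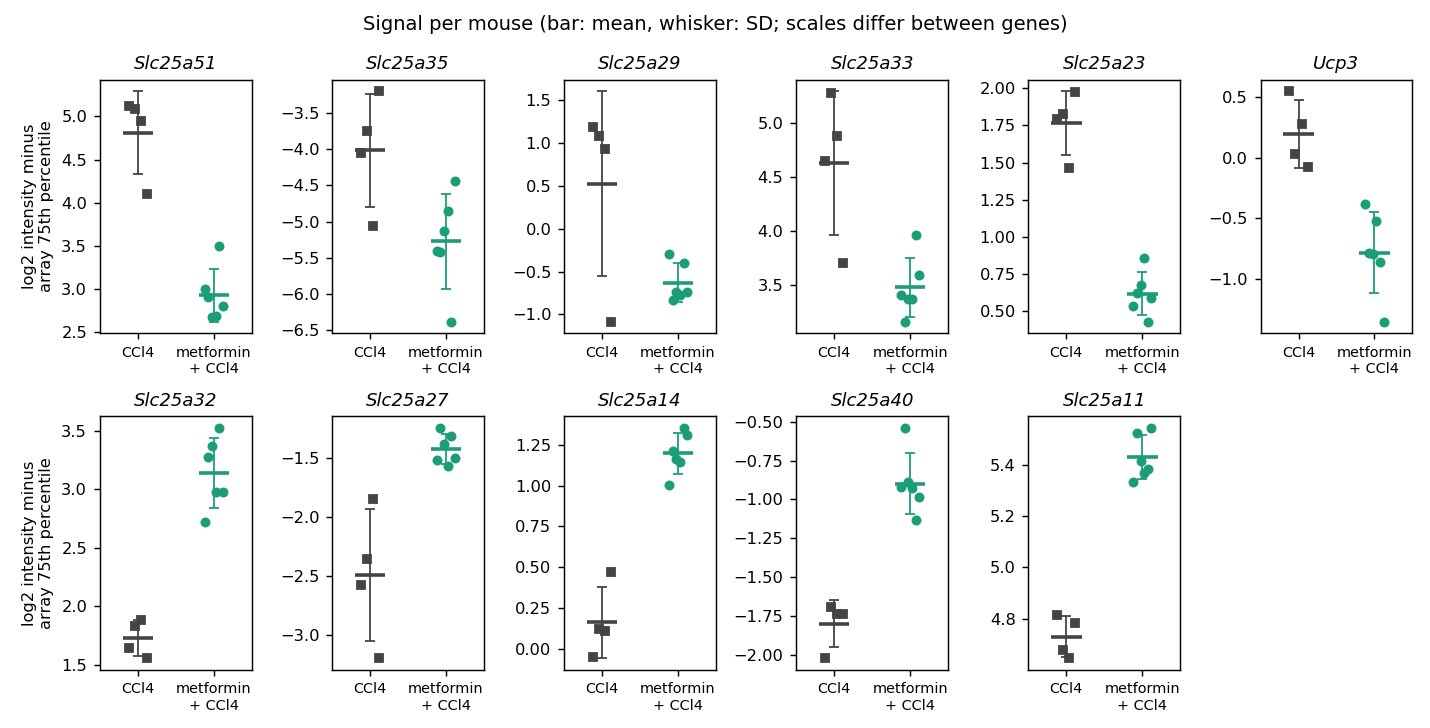
Log2 intensity minus the array's 75th percentile in each mouse for called carriers with large fitted falls (top) and rises (bottom); points are mice, bars means and whiskers SD, n = 4 and 6. For Slc25a51, Slc25a23, Ucp3 and every gene of the lower row the groups do not overlap, whereas CCl4 mouse 4 sits among or below the metformin mice for Slc25a33 and Slc25a29. Slc25a35 was well above background on 3 of 4 CCl4 and 0 of 6 metformin arrays and entered the test through the CCl4 group. Slc25a32 is shown by its brighter probe, and the change of its other probe was -1.09.

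Among 9 carriers with other or unsettled cargo 6 were tested, 1 was called higher and 2 lower, Slc25a35 among them. Slc25a47, a carrier found mainly in liver and the direct neighbour of Slc25a29 on chromosome 12, was at 8.75, 8.84, 9.01 and 8.03 in CCl4 mice and 7.10 to 8.21, median 7.83, with metformin. CCl4 mouse 4 lay below 2 metformin mice and the other CCl4 mice above all 6. It fell by 0.94 ± 0.28 SE on the log2 scale (adjusted p = 0.0191), a call that ended when CCl4 mouse 2 (0.0536 as adjusted p) or 3 (0.0594) was left out, and in both slide row fits. Slc25a35, whose cargo is unsettled, was at -4.06, -3.76, -5.06 and -3.21 in CCl4 mice and -6.38 to -4.44, median -5.27, with metformin. It was well above background on 3 of 4 CCl4 and 0 of 6 metformin arrays, so it too entered the test through the CCl4 group. Its CCl4 mean was 1.59-fold above the floor of the dimmest probes above background, again not a firm minimum, and the groups overlapped. No test is given, and its change with normexp was -0.24.

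Slc25a46 lies in the outer membrane and takes part in mitochondrial fission. By its brighter probe it was at 3.61, 3.60, 3.82 and 3.46 in CCl4 mice and 3.93 to 4.14, median 4.02, with metformin, a called change of 0.41 ± 0.089 SE without overlap. The second probe to the same accession was at -0.0030 and not called, the mean of both was at 0.21 (adjusted p = 0.345), and spike-in scaling gave -0.14. Slc25a34 (0.42 ± 0.43 SE), Slc25a45 (-0.14 ± 0.23 SE) and Slc25a48 (-0.23 ± 0.20 SE) were not called; Slc25a34 had the widest spread of any tested carrier among CCl4 mice (SD 1.18, n = 4), with CCl4 mouse 4 at -0.66 and the others at 1.25 to 1.93. Slc25a43, Slc25a53 and Slc25a54 were not bright enough to be tested. Slc25a41, an ATP-Mg/phosphate carrier next to Slc25a23 in the genome, was also not tested: it was well above background on 2 of 6 metformin and 0 of 4 CCl4 arrays, at -5.16 to -4.06, median -4.64, and -6.10, -6.33, -6.69 and -6.82.

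**Figure D3:**
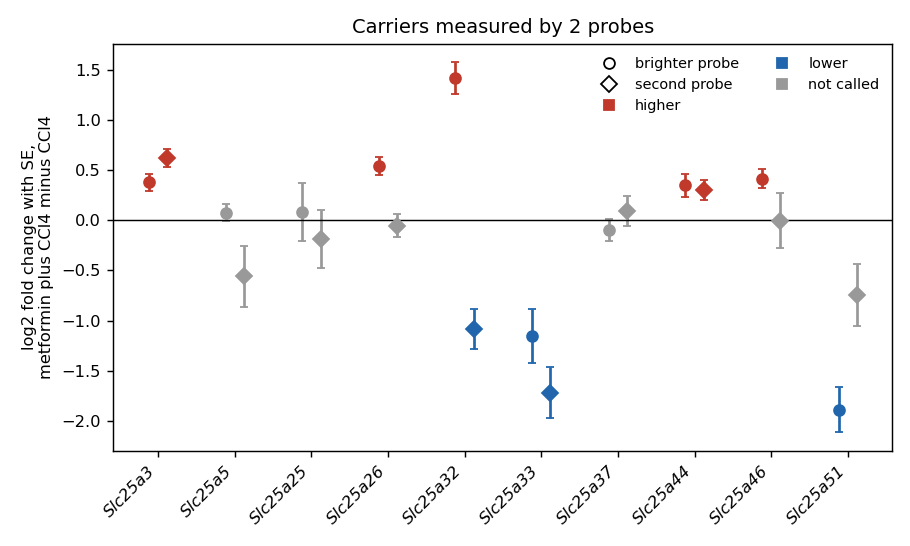
Log2 fold change with its SE for the 10 carriers with 2 probes bright enough to be tested, each probe tested as a feature of its own. Both probes were called in the same direction for Slc25a3, Slc25a33 and Slc25a44, in opposite directions for Slc25a32, and only the brighter probe was called for Slc25a26, Slc25a46 and Slc25a51.

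Related carriers can be compared within an array, where scaling of the whole array has no effect. For 9 such pairs, put together with the results known and therefore given with no test, the log2 difference of the partners was taken per mouse. The value of Slc25a39 minus Slc25a40 was 5.90, 5.61, 5.45 and 5.48 in CCl4 mice and ran from 3.72 to 4.30 with metformin, lower by 1.55 on average. Slc25a28 minus Slc25a37 was 1.0, 1.02, 0.76 and 0.31 in CCl4 mice and ran from -0.36 to 0.30 with metformin, the highest metformin mouse lying just below the lowest CCl4 mouse. For these pairs, and for Slc25a12 minus Slc25a13 (change -0.62) and Slc25a23 minus Slc25a25 (-1.22), the groups did not overlap. They overlapped for Slc25a33 minus Slc25a36 (-1.03), Slc25a23 minus Slc25a24 (-0.93), Slc25a4 minus Slc25a5 (-0.22), Slc25a16 minus Slc25a42 (0.14) and Ucp2 minus Ucp3 (0.069). With normexp the changes of the Slc25a39 and Slc25a12 pairs were smaller, at -1.16 and -0.42.

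**Figure D4:**
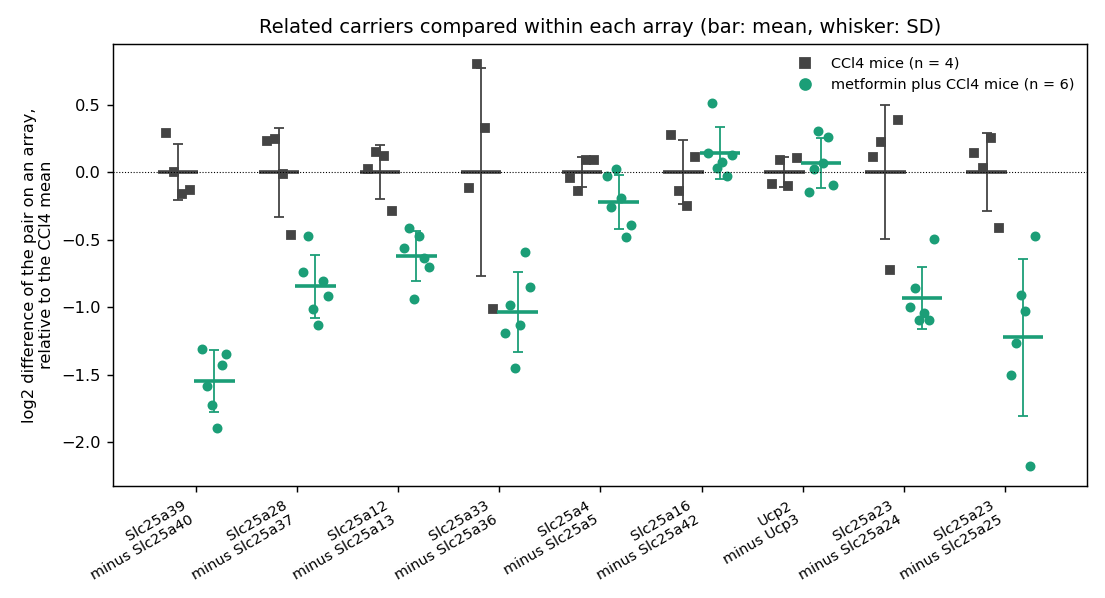
Log2 difference of 9 pairs of related carriers on each array, shifted so that the CCl4 mean is 0; points are mice, bars means and whiskers SD, n = 4 and 6. The metformin mice lie below all CCl4 mice for Slc25a39 minus Slc25a40, Slc25a28 minus Slc25a37, Slc25a12 minus Slc25a13 and Slc25a23 minus Slc25a25.

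CCl4 mouse 4 recurred as the CCl4 mouse nearest to the metformin mean. For the 24 called carriers it was nearest in 11, CCl4 mouse 3 in 8, mouse 1 in 4 and mouse 2 in 1. Mouse 4 was also the one most often nearest over the called features of the whole array, so this is not particular to carriers. The shares there were 34.7%, 24.3%, 25.3% and 15.8% for mice 4, 3, 1 and 2. Without CCl4 mouse 4 the carriers called were 10 higher and 12 lower. The median SD of a tested carrier was 0.22 in metformin and 0.19 in CCl4 mice, near the 0.23 and 0.22 of all features.

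Genes that work with the carriers were read from the same fit, in which 28.0% of all features were called higher and 17.4% lower. Of the genes that import and insert carriers, 12 of 16 tested were higher and 0 lower (median change 0.38, against 0.10 for all features). The small TIM chaperones Timm9 and Timm10, which escort carriers across the space between the membranes, were at 0.76 and 0.68 (adjusted p = 6.34e-04 and 0.00647), and Tomm7, a subunit of the outer membrane pore, at 0.63 (adjusted p = 0.00254). After spike-in scaling 2 of the 16 were called, both lower, and Timm9, Timm10 and Tomm7 were at 0.20, 0.12 and 0.070. Other mitochondrial transporters had 11 of 23 higher and 2 lower, with a median of 0.29, and 0 higher and 6 lower after spike-in scaling. The pyruvate carrier subunit Mpc1 was at 0.79 (adjusted p = 2.88e-04), the transporter Abcb8 at 0.66 and the calcium-sodium exchanger Slc8b1 at 0.56; scaled to spike-ins Mpc1, Abcb8 and Slc8b1 were at 0.24, 0.11 and 0.0091.

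Enzymes that make or use carried substrates had 8 of 29 higher and 7 lower, with a median of -0.0010, and 0 higher and 15 lower after spike-in scaling. Cps1, the first enzyme of the urea cycle, was at -0.75, Asl, a later enzyme of that cycle, at -0.58, and Gldc was lower too, at -0.53. Otc, which uses the ornithine brought by Slc25a15, was called higher at 0.25 (adjusted p = 0.0474, and -0.30 after spike-in scaling). The urea cycle enzymes Ass1 and Arg1 were at -0.25 and -0.094 and not called. Coasy, Pank1 and Me1 were called higher, at 0.55, 0.53 and 0.53 (-0.0038, -0.026 and -0.030 after spike-in scaling). Regulators of mitochondrial genes had 3 of 10 higher and 2 lower, and 1 higher (Ppara) and 5 lower after spike-in scaling. Ppara, the nuclear receptor of fatty acid oxidation, was at 1.96 (1.40 after spike-in scaling), the lipogenic factor Srebf1 at -1.18 (-1.74), and the nuclear receptor Esrra at 1.05 (0.49, no longer called), with adjusted p = 0.00103, 1.24e-04 and 3.41e-04.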

How the data were processed

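Liver RNA of 10 mice (6 metformin plus CCl4, 4 CCl4; groups from the sample titles; integrity number above 8, 100 ng labelled with Cy3, per the labels' protocols) was measured on 1-colour Agilent arrays. The deposited scanner files hold spot intensities made with Agilent Feature Extraction 10.7.3.1, background-subtracted and detrended within an array and not normalized between arrays, per the file headers; gene models of their grid are of build mm9. The authors' deposited table holds log2 quantile-normalized values of 4595 probes, filtered at FDR below 0.01 and fold change above 1.5 per its first line, so it was used without a test. It held 12 carrier probes, with differences from -2.00 (Slc25a51) to 1.32 (the brighter Slc25a32 probe), while the other Slc25a32 probe was at -1.15.

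Here log2 of the processed intensity minus the array's 75th percentile was used, irregular spots (135 to 179 per array) were left out, spots of a probe were averaged, and a probe was kept (29576 in all) if, in 1 group or both, 75% or more of its arrays read it as well above background. Accessions were matched without versions to RefSeq GRCm38.p6 symbols, used for names and gene order (28664 probes named); promoter sequences are RefSeq's of the same build. Slc25a5-ps, a pseudogene, had no accession to match. A gene was represented by its brightest kept probe over all arrays. Groups were compared with limma 3.58.1 in R 4.3.3 (lmFit, eBayes, two-sided, Benjamini-Hochberg over 22184 features). On data simulated for this comparison (22184 features) it recovered 60% of 100 genes changed 2-fold and made 2 false calls. Of 100 genes whose log2 value was moved by 0.5 it recovered 13%. Far more features were called in the data themselves (45.4%), so these shares do not give the power reached there. The 75th percentile of intensity was 237 to 363, 51.2% to 54.9% of probes were well above background, 0 spots were saturated, and the number of arrays limits the precision. The fold above a floor sets the brighter group's mean against, per array, the higher of the dim probe and the lowest probe well above background. That mean includes any array of the brighter group where the probe was not well above background, so the fold is not a firm minimum.

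Alternatives were array median, quantile and spike-in (8 E1A probes) scaling, normexp (offset 50, on median spot and background signals), 2 other filters, the mean of probes, probes tested singly, slide row as covariate, slide row 1 only, array weights, the mouse number as a replicate block and leaving out each mouse. Same-numbered mice of the 2 groups did not deviate together (correlations -0.14, -0.12, 0.085 and -0.0034). These values gave no sign of pairing by number but cannot exclude it. Named carriers were the 6 largest called rises and falls and those whose probes differ in call. Also named were 13 with known liver roles (Slc25a1, 5, 10, 11, 13, 15, 20, 25, 37, 42, 47 and 51 and Ucp2). Other carriers are given by their change, and partner genes by the 3 largest called changes of a list. Gldc, Otc, Fech, Cpt1a, Cpt2, Ass1, Arg1, Coasy, Pank1 and Me1 were chosen after their values were seen. The members, gene lists and rules were chosen with earlier results of these data known. Mice are separate animals. The individual values of 1 carrier and 1 marker are not reported here, though both stay in the counts.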

Additional observations from a re-analysis of the deposited data

Results flagged for a closer look

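In 6 of the 86 groups of carrier values examined, 1 mouse stood far from the others by Dixon's criterion, which chance meets in about 1 in 20 groups. Slc25a29 was at -1.08 in CCl4 mouse 4, against 0.92 to 1.18 in the other CCl4 mice. Slc25a51 was at 4.10 in CCl4 mouse 4, against 4.95 to 5.12. Slc25a28 was at 3.35 in CCl4 mouse 4, against 3.80 to 3.89. Slc25a24 was at -1.07 in CCl4 mouse 3, against -1.67 to -1.58. Slc25a40 was at -2.02 in CCl4 mouse 1, against -1.74 to -1.69. Ucp2 was at -1.27 in metformin mouse 6, against -0.58 to -0.28. Of these genes Slc25a28, Slc25a40, Slc25a51 and Ucp2 kept their call with each mouse left out in turn.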

How the results depend on the processing

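Of 24 carriers called, 15 were called with slide row as a covariate (6 of them lower). With slide row 1 alone 12 were called (6 higher, 6 lower). Both fits take the change from the same 2 metformin mice, since slide row 2 held metformin mice only. With 1 mouse left out the count was 19 to 23 (10 to 11 higher, 8 to 13 lower). With the replicate block 19 carriers were called (9 higher, 10 lower), although no sign of pairing by number was seen. Spike-in scaling gave 2 higher and 26 lower and turned the sign of Slc25a3 (-0.18), Slc25a5 (-0.48), Slc25a13 (-0.55), Slc25a22 (-0.52), Slc25a26 (-0.018), Slc25a44 (-0.21) and Slc25a46 (-0.14), which follows from subtracting 1 value per array. Other carrier counts stayed within 1.5 times. Called genes of the partner lists moved as follows: import and insertion 12 to 2 (spike-in), 4 (row 1) and 5 (block), with 8 to 12 when a mouse was left out; other transporters 13 to 6 (spike-in), 8 (row covariate), 4 (row 1) and 4 (block), with 10 to 13; substrate enzymes 15 to 9 (median scaling), 8 (row covariate), 8 (row 1) and 7 (block), with 9 to 14, the 9 without CCl4 mouse 1; regulators 5 to 11 with probes tested singly (19 probes). The cause of these moves was not tested. In the simulation far fewer features were changed than were called here (45.4%), so it does not give the power of this comparison. An uncalled carrier is not shown to be unchanged.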
